A study of Mus musculus with 6 samples.

Results

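A set of 10 genes of cholesterol export, oxysterol synthesis and the liver X receptor (LXR) response was followed in cultured microglia that lack phospholipase C gamma 2. They were Apoe, Apoc2, Pltp, Abca1, Abcg1, Nr1h3, Mylip, Soat1, Nceh1 and Ch25h, taken by symbol from a table of 54347 gene rows. Each symbol stood on 1 row, and all 10 were among the 12652 genes whose mean level was at least 1 TPM (transcripts per 1000000). The 6 libraries comprise 3 of Plcg2-/- and 3 of Plcg2+/+ microglia, the resident macrophages of the brain, from littermates of the C57BL/6 strain aged 2 to 3 days. Forebrain glia of both genotypes were grown with 10% serum and 5 ng/mL of the myeloid growth factor GM-CSF, and microglia were shaken off on day 12 to 13. They then rested for at least 72 h with 1% serum and 0.5 ng/mL GM-CSF, so every group was exposed to GM-CSF, and no group was stimulated. Single libraries are named by genotype and replicate number. Whether a number stands for its own animal or culture is not stated in the labels, and the p-values below speak only of the spread among these 6 libraries, which could be technical.

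Macrophages cannot break down the sterol ring, so excess cholesterol is either stored as ester or exported. Soat1 esterifies free cholesterol for storage and Nceh1 hydrolyses the ester, while Abca1 and Abcg1 move cholesterol out of the cell to apolipoprotein particles such as those built on Apoe. Oxysterols, among them the 25-hydroxycholesterol made by Ch25h, activate the nuclear receptors LXR alpha, encoded by Nr1h3, and LXR beta, encoded by Nr1h2, which pair with a retinoid X receptor. LXR then raises transcription of Abca1, Abcg1, Apoe, Apoc2, Pltp and Mylip, and in brain the lipoproteins of glia carry cholesterol to neurons.

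Each library's TPM values add up to one common total, so the depth behind a value is unknown here and no counting interval can be given. Plcg2 itself (chromosome 8) stood at 16.05, 16.7 and 16.1 TPM in the Plcg2-/- libraries 1 to 3, against 45.2, 39.7 and 54.9 TPM in Plcg2+/+ 1 to 3. Csf1r, the macrophage growth factor receptor, stood at 601 to 780 TPM in Plcg2-/- and 503 to 685 TPM in Plcg2+/+ libraries, whereas Sall1 and Siglech stayed below 1 TPM in all 6 libraries and Tmem119 was at most 1.47 TPM. Of 14 microglia markers tested 5 rose in Plcg2-/- microglia (Fcrls, P2ry12, P2ry13, Aif1 and C1qc) and 3 fell (Trem2, Olfml3 and Cx3cr1). Of all genes tested 15.6% rose and 5.31% fell. Fcrls averaged 37.3 ± 14.1 TPM in Plcg2-/- and 2.80 ± 0.493 TPM in Plcg2+/+, and P2ry13 137 ± 5.62 TPM in Plcg2-/- and 28.5 ± 13.6 TPM in Plcg2+/+ (SD, n = 3 each). Olfml3 averaged 1.03 ± 0.799 TPM in Plcg2-/- and 18.6 ± 11.6 TPM in Plcg2+/+ (SD, n = 3 each). Cx3cr1 averaged 0.244 ± 0.145 TPM in Plcg2-/- and 2.06 ± 0.803 TPM in Plcg2+/+ (SD, n = 3 each). The part of these marker differences in the results was not tested. Astrocyte markers, which matter because astrocytes also express Apoe, summed to 43.7 to 60.7 TPM in Plcg2-/- and 30.9 to 60.9 TPM in Plcg2+/+ libraries over 11 genes, with Sox9, Gjb6, Gja1 and Fgfr3 below 1 TPM throughout. Of the 4 tested, Aldh1l1 rose, with 36.9, 19.7 and 28.2 TPM in Plcg2-/- 1 to 3, against 11.6, 9.24 and 16.0 TPM in Plcg2+/+ 1 to 3 (limma adjusted p = 0.0282). Aldoc averaged 18.2 TPM in Plcg2-/- and 23.7 TPM in Plcg2+/+, and Gfap 2.24 TPM in Plcg2-/- and 2.95 TPM in Plcg2+/+. S100b averaged 2.35 TPM in Plcg2-/- and 1.81 TPM in Plcg2+/+. Aldoc, Gfap and S100b did not pass (limma adjusted p = 0.602, 0.820 and 0.653). A list of 15 hepatocyte markers, chosen after the values of Apoa1 and Apoa2 had been seen, summed to 92.5, 593 and 791 TPM in Plcg2-/- 1 to 3, against 96.6, 658 and 803 TPM in Plcg2+/+ 1 to 3. Y-linked transcripts summed to 58.6, 0.783 and 0.994 TPM in Plcg2-/- 1 to 3, against 0.371, 107 and 112 TPM in Plcg2+/+ 1 to 3, so Y-linked expression was not balanced between the genotypes. X-linked Xist had 18.4, 49.4 and 40.2 TPM in Plcg2-/- 1 to 3, against 50.5, 0.747 and 1.02 TPM in Plcg2+/+ 1 to 3. Plcg2-/- 1 thus held both Xist and Y-linked transcripts. Mitochondrially encoded genes took 5.00 to 8.68% of TPM in Plcg2-/- and 13.6 to 17.3% in Plcg2+/+ libraries. The 9 markers of border macrophages and monocytes summed to 906 to 1040 TPM in Plcg2-/- and 385 to 431 TPM in Plcg2+/+ libraries. Of the 5 tested, 2 rose (Ms4a7 and Pf4), against 15.6% of all genes tested. Cd163, Plac8, Lyve1 and F13a1 were below 1 TPM throughout. The mitochondrial share and the border macrophage and monocyte sum did not overlap between genotypes. Rescaling TPM without mitochondrially encoded genes moved the median log2 fold change (Plcg2-/- over Plcg2+/+) of all genes from 0.187 to 0.066. The same rescaling moved Apoe from 0.153 to 0.020. The part of the border macrophage and monocyte sum in the results was not tested.

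Setting Plcg2-/- against Plcg2+/+ microglia shows which of the 10 transcripts differ with loss of phospholipase C gamma 2. Ch25h rose and Nceh1 fell in Plcg2-/- microglia, and the other 8 genes, including Apoe, Abca1 and Abcg1, did not pass the test. Fold changes divide Plcg2-/- by Plcg2+/+ and were taken on log2(TPM + 1), which understates the change of low genes, and a gene was called at a limma adjusted p below 0.05 over all 12652 genes tested. Of all genes tested, 20.9% were called, 15.6% as higher and 5.31% as lower, so 2 calls among 10 genes is close to that background. The values of the 2 genotypes did not overlap for 5 of the 10 genes, namely Ch25h and Mylip, higher in every Plcg2-/- library, and Apoc2, Soat1 and Nceh1, lower in every Plcg2-/- library. Across all genes tested 43.3% did not overlap, 32.4% with Plcg2-/- higher and 10.9% with Plcg2+/+ higher. The median log2 fold change was 0.12 for the 10 genes and 0.19 for all genes tested. Scaling by median of ratios moved the median of all genes to -0.0045, and with it 1 of the 10 genes was called higher and 2 lower (Nceh1 and Soat1), against a background of 7.71% higher and 7.85% lower. With the replicate number as a block 1 was higher and 1 lower, against a background of 26.1% called, 19.6% higher and 6.44% lower. In bulk RNA, fewer cells of a type and less RNA per cell cannot be told apart.

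**Figure D1:**
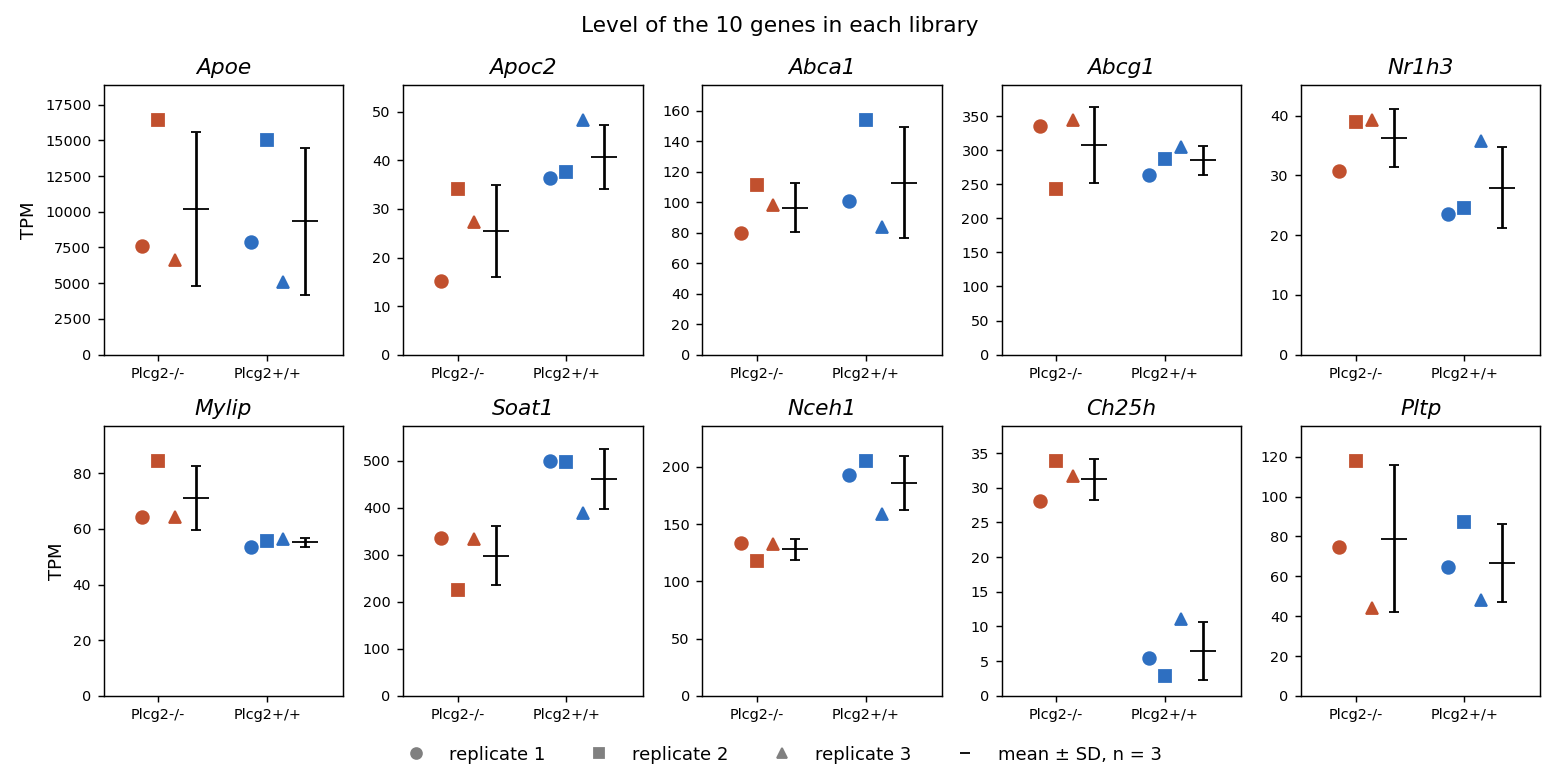
Level of the 10 genes in TPM (linear axes from 0) in each library, Plcg2-/- on the left and Plcg2+/+ on the right of each panel, with the mean and SD (n = 3) in black and a symbol for each replicate number. Ch25h lay at 28.1 to 33.8 TPM in Plcg2-/- and 2.84 to 11.1 TPM in Plcg2+/+ libraries, while the Apoe values of the genotypes overlapped and both libraries numbered 2 were highest.

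Ch25h, cholesterol 25-hydroxylase, makes 25-hydroxycholesterol, an oxysterol that activates LXR, restrains sterol synthesis and has antiviral activity. The gene (ENSMUSG00000050370.5) lies on the minus strand of chromosome 19 at 34473778 to 34475164 in GRCm38 and codes for protein. The libraries held 28.1, 33.8 and 31.7 TPM in Plcg2-/- 1 to 3, against 5.49, 2.84 and 11.1 TPM in Plcg2+/+ 1 to 3. Every Plcg2-/- library was above every Plcg2+/+ library, and the 3 Plcg2-/- values lay closer together than the 3 Plcg2+/+ values. The mean was 31.2 ± 2.9 TPM in Plcg2-/- and 6.46 ± 4.20 TPM in Plcg2+/+ (SD, n = 3 each). Ch25h rose by 2.26 ± 0.38 (SE) on the log2 scale, a 4.80-fold increase with a 95% interval of 2.57 to 8.93 before adjustment (limma adjusted p = 0.00953). Within replicate numbers 1, 2 and 3 the ratio of Plcg2-/- to Plcg2+/+ was 5.11, 11.9 and 2.87. Gm26902, a long non-coding RNA on the opposite strand that overlaps the gene, stood at 0.575 to 0.829 TPM in Plcg2-/- and 0.166 to 0.780 TPM in Plcg2+/+ libraries; the strand setting of the counting is not known here.

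Since Ch25h is the member with the largest change, its promoter is shown, from 250 bases before to 50 after the annotated start (RefSeq, GRCm38.p6, chr19:34475099-34475398, minus strand), with the cyclic AMP response element TGACGTCA in capitals.
Ch25h: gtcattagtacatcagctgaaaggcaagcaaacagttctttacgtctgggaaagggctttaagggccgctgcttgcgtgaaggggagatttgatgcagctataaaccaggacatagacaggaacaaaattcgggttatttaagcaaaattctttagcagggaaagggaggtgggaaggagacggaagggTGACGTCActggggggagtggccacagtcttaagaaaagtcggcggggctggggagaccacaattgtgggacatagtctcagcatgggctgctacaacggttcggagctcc
The element lies at -61 to -54, counting the first transcribed base as 0. It reads the same on both strands and occurs in 1.79% of the 32851 promoter windows of the same length. The interferon-stimulated response element core, 2 copies of GAAA spaced by 2 bases, searched on both strands, was not found in this window and occurs in 3.44% of all windows. Promoter windows were found for 9 of the 10 genes, and among these TGACGTCA occurred in Ch25h alone and the interferon core in none. A match describes the letters of the window and is not a binding site.

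Ch25h is also known as a gene induced by interferon. All 19 tested genes of the interferon list rose in Plcg2-/- microglia, against a background of 15.6%, with a median log2 fold change of 2.53 against 0.19 for all genes. The list was chosen with earlier results of these data known, so this count is a description and not an independent test. Their summed level was 3690 to 5468 TPM in Plcg2-/- and 605 to 955 TPM in Plcg2+/+ libraries. The 3 interferon genes with the smallest p were Mx1, Cxcl10 and Cmpk2. Mx1, an antiviral GTPase, averaged 142 ± 25.2 TPM in Plcg2-/- libraries, against 9.58 ± 1.49 TPM in Plcg2+/+ libraries (SD, n = 3 each). The chemokine Cxcl10 averaged 145 ± 46.9 TPM in Plcg2-/- libraries, against 2.92 ± 1.26 TPM in Plcg2+/+ libraries, and the nucleotide kinase Cmpk2 96.8 ± 17.4 TPM in Plcg2-/- libraries, against 15.95 ± 2.54 TPM in Plcg2+/+ libraries. The part of the interferon response in the Ch25h result was not tested.

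Nceh1 and Soat1 run the 2 directions of the cholesterol ester cycle, and both were lower in every Plcg2-/- library. Nceh1 (chromosome 3, 27182965 to 27284608, plus strand), the neutral cholesterol ester hydrolase, had 134, 118 and 133 TPM in Plcg2-/- 1 to 3, against 193, 205 and 159 TPM in Plcg2+/+ 1 to 3. The means were 128 ± 9.0 TPM in Plcg2-/- and 186 ± 23.7 TPM in Plcg2+/+ (SD, n = 3 each). Nceh1 fell by 0.53 ± 0.13 (SE) on the log2 scale, with a 95% interval of -0.84 to -0.22 before adjustment (limma adjusted p = 0.0319). That call did not survive leaving out most single libraries: the limma adjusted p was 0.0909, 0.0726 and 0.0831 without Plcg2-/- 1, 2 and 3, and 0.105 and 0.0842 without Plcg2+/+ 1 and 2. It was 0.0183 without Plcg2+/+ 3, the lowest of the Plcg2+/+ libraries, and 0.0851 with log2(summed Y-linked TPM + 1) as covariate.

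Soat1 (chromosome 1, 156424525 to 156474331, minus strand), the acyltransferase that esterifies cholesterol, had 336, 225 and 334 TPM in Plcg2-/- 1 to 3, against 498, 497 and 388 TPM in Plcg2+/+ 1 to 3. The lowest value was that of Plcg2-/- 2, and the genotypes did not overlap. The log2 fold change was -0.64 ± 0.20 (SE; limma adjusted p = 0.0586), which did not pass, with a 95% interval of -1.11 to -0.18 before adjustment. Soat1 passed after median-of-ratios scaling, at a log2 fold change of -0.86 (limma adjusted p = 0.0297), and without Plcg2+/+ 3 (limma adjusted p = 0.0460). The ratio of Soat1 to Nceh1 within a library was 2.51, 1.91 and 2.52 in Plcg2-/- 1 to 3, against 2.58, 2.43 and 2.44 in Plcg2+/+ 1 to 3, so the 2 transcripts kept a similar ratio except in Plcg2-/- 2.

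Apoe, the main lipoprotein protein of glia, was by far the most abundant of the 10 transcripts and took 0.977% of all TPM on average. The gene (ENSMUSG00000002985.16) lies on chromosome 7 at 19696109 to 19699188, minus strand. Its level was 7619, 16416 and 6608 TPM in Plcg2-/- 1 to 3, against 7905, 15015 and 5065 TPM in Plcg2+/+ 1 to 3. The genotypes overlapped, with the highest value in a Plcg2-/- and the lowest in a Plcg2+/+ library. Within each genotype the library numbered 2 was the highest. The means were 10214 ± 5395 TPM in Plcg2-/- and 9328 ± 5126 TPM in Plcg2+/+ (SD, n = 3 each), so the spread within a genotype was far larger than the difference between the means. Without a replicate block the log2 fold change was 0.15 ± 0.49 (SE, limma adjusted p = 0.845), with a 95% interval of -1.0 to 1.31. That interval leaves room for a change of 2.48-fold upwards and down to 0.499 of the Plcg2+/+ level, but it includes spread shared by replicate number. With the replicate number as a block the SE was 0.23 at the same log2 fold change (limma adjusted p = 0.641). The sign was not stable: it was -0.06 after median-of-ratios scaling.

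Apoc2, a cofactor that activates lipoprotein lipase, is encoded close to Apoe, at 19671579 to 19677941 on the minus strand of chromosome 7. It had 15.3, 34.0 and 27.3 TPM in Plcg2-/- 1 to 3, against 36.3, 37.5 and 48.3 TPM in Plcg2+/+ 1 to 3. All Plcg2-/- values were below all Plcg2+/+ values, with Plcg2-/- 1 the lowest. The log2 fold change was -0.71 ± 0.28 (SE; limma adjusted p = 0.115) and did not pass, its unadjusted 95% interval being -1.38 to -0.04. With the replicate number as a block together with median-of-ratios scaling Apoc2 passed, at -0.92 (limma adjusted p = 0.0426), and without Plcg2-/- 1 the log2 fold change was -0.39. Apoc2 is also a hepatocyte gene, and the hepatocyte marker sum was lowest in both libraries numbered 1. With log2(that sum + 1) as a covariate, a setting added after the values were seen, the Apoc2 log2 fold change was -0.70 (limma adjusted p = 0.0692). Gm44805, a coding gene annotated across Apoc2 on the same strand, was at most 1.3 TPM in any library.

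The neighbours Apoc1 and Apoc4, apolipoprotein genes of the same cluster, overlapped between genotypes. Apoc1 had 47.8, 202 and 154 TPM in Plcg2-/- 1 to 3, against 73.3, 96.7 and 255 TPM in Plcg2+/+ 1 to 3, and Apoc4 had 4.22, 28 and 27.4 TPM in Plcg2-/- 1 to 3, against 2.72, 13.9 and 40.1 TPM in Plcg2+/+ 1 to 3. Both were lowest in the libraries numbered 1, where hepatocyte markers were lowest, which Apoe was not; the part of hepatocyte transcripts in these values was not tested. Apoe over Apoc2 was 499, 482 and 242 in Plcg2-/- 1 to 3, against 218, 400 and 105 in Plcg2+/+ 1 to 3.

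Pltp, phospholipid transfer protein, which remodels lipoproteins, had the same order of libraries as Apoe within each genotype, 2, 1 and 3 from high to low. It had 74.8, 118 and 44.0 TPM in Plcg2-/- 1 to 3, against 64.7, 87.1 and 47.9 TPM in Plcg2+/+ 1 to 3. The genotypes overlapped, and the log2 fold change was 0.17 ± 0.37 (SE, limma adjusted p = 0.766), with a 95% interval of -0.70 to 1.05. With the replicate number as a block the SE was 0.13 (limma adjusted p = 0.378). Its sign also turned with scaling, to -0.04 after median of ratios. Pltp (chromosome 2, 164839518 to 164857711, minus strand) overlaps Ctsa, the gene of a lysosomal carboxypeptidase on the opposite strand, whose level was 1218 to 1375 TPM in Plcg2-/- and 1266 to 1589 TPM in Plcg2+/+ libraries. Without knowledge of the strand, reads from the overlap of the 2 genes cannot be told apart.

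Abca1 and Abcg1, the export pumps, showed no called difference. Abca1 (chromosome 4, 53030787 to 53159895, minus strand), which loads lipid onto lipid-poor apolipoprotein, had 79.6, 111 and 98.1 TPM in Plcg2-/- 1 to 3, against 101, 154 and 83.5 TPM in Plcg2+/+ 1 to 3. The library numbered 2 was the highest in each genotype, and the genotypes overlapped. Its log2 fold change was -0.19 ± 0.24 (SE; limma adjusted p = 0.599; 95% interval -0.76 to 0.38), and 0.06 without Plcg2+/+ 2.

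Abcg1 (chromosome 17, 31057675 to 31117988, plus strand), which exports cholesterol to formed lipoprotein particles, had 336, 243 and 344 TPM in Plcg2-/- 1 to 3, against 263, 287 and 305 TPM in Plcg2+/+ 1 to 3. The lowest and the highest values were both from Plcg2-/- libraries. The log2 fold change was 0.09 ± 0.16 (SE; limma adjusted p = 0.705), the narrowest error but 2 among the 10 genes, and its interval of -0.29 to 0.48 reached at most 1.39-fold upwards. It was -0.12 after median-of-ratios scaling and -0.04 after rescaling without mitochondrially encoded genes.

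LXR binds direct repeats of AGGTCA spaced by 4 bases, and the human Abca1 counterpart has such an element close to its start. The mouse Abca1 promoter (RefSeq, GRCm38.p6, chr4:53159846-53160145, minus strand) is therefore shown, with the best match to that repeat in capitals.
Abca1: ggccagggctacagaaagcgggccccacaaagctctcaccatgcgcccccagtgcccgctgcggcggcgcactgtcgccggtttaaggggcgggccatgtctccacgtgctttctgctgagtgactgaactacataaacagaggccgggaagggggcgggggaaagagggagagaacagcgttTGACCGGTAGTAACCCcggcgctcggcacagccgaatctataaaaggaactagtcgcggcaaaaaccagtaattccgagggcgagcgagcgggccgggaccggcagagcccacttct
The match lies at -67 to -52 on the opposite strand, where it reads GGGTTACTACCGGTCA, and differs from the motif at 3 of the 12 fixed bases. With up to 3 mismatches on either strand the motif occurs in 21.9% of all 32851 windows, and among the 9 genes with a window in Abca1 alone; with up to 2 mismatches it occurs in 3.02% of windows and in none of the 9.

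Nr1h3 and Mylip stood slightly higher in Plcg2-/- microglia without passing the test. Nr1h3 (chromosome 2, 91184061 to 91202834, minus strand), which encodes LXR alpha and is itself an LXR target in human macrophages, had 30.7, 39.0 and 39.2 TPM in Plcg2-/- 1 to 3, against 23.5, 24.6 and 35.8 TPM in Plcg2+/+ 1 to 3. Plcg2+/+ 3 lay within the range of the Plcg2-/- libraries. The log2 fold change was 0.38 ± 0.19 (SE, limma adjusted p = 0.185, 95% interval -0.06 to 0.83), 0.19 above the median of all genes. Nr1h3 passed without Plcg2+/+ 3, at 0.57 (limma adjusted p = 0.0431). It stood at 0.17 after median-of-ratios scaling and 0.25 after rescaling without mitochondrially encoded genes (limma adjusted p = 0.533 and 0.395).

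Mylip (chromosome 13, 45389742 to 45412022, plus strand) is a ubiquitin ligase that lowers lipoprotein uptake. It had 64.4, 84.3 and 64.3 TPM in Plcg2-/- 1 to 3, against 53.3, 55.7 and 56.4 TPM in Plcg2+/+ 1 to 3. All Plcg2-/- values were above all Plcg2+/+ values, and Plcg2-/- 2 stood apart as the highest. The log2 fold change was 0.35 ± 0.13 (SE; limma adjusted p = 0.104), 0.16 above the median of all genes, and it was 0.14 after median-of-ratios scaling.

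**Figure D2:**
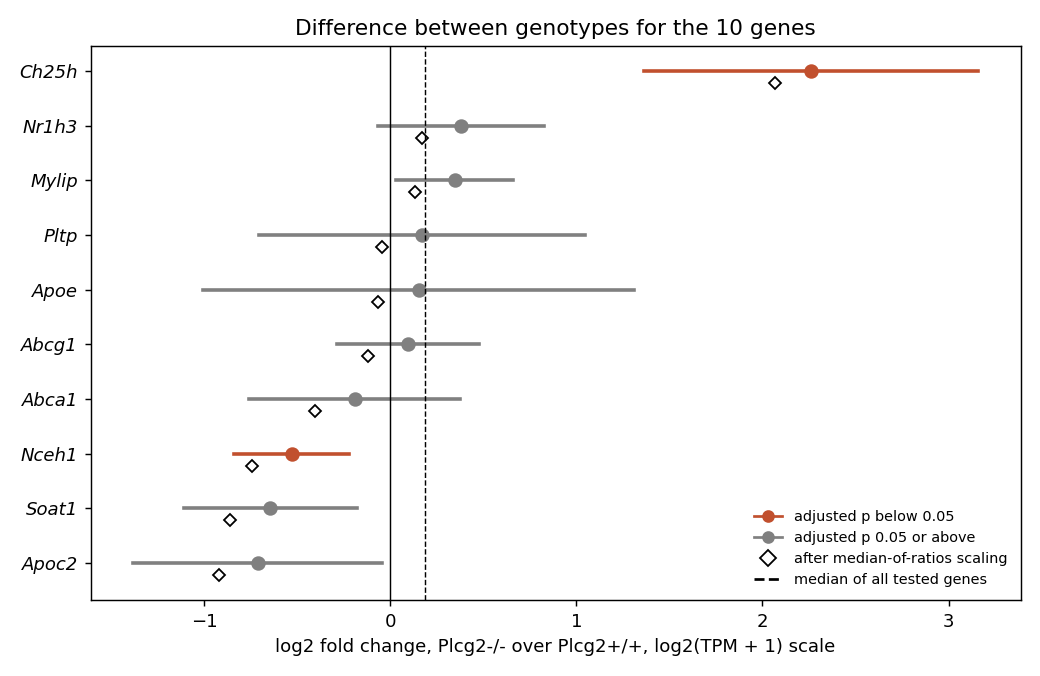
Log2 fold change (Plcg2-/- over Plcg2+/+) of the 10 genes, from log2(TPM + 1), with unadjusted 95% intervals; red marks an adjusted p below 0.05, open diamonds the value after median-of-ratios scaling and the dashed line the median of all tested genes (0.19). Ch25h at 2.26 and Nceh1 at -0.53 are called, and Pltp, Apoe and Abcg1 lie on the other side of 0 after scaling.

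TPM is per length, so levels can be ordered between genes. In Plcg2-/- microglia the order by mean TPM was Apoe, Abcg1, Soat1, Nceh1, Abca1, Pltp, Mylip, Nr1h3, Ch25h and Apoc2. In Plcg2+/+ microglia it was Apoe, Soat1, Abcg1, Nceh1, Abca1, Pltp, Mylip, Apoc2, Nr1h3 and Ch25h. Apoe stood clear of all others in every library. Neighbours whose values overlapped were Abcg1 and Soat1, Abca1 and Pltp, Pltp and Mylip, Nr1h3 and Ch25h, and Ch25h and Apoc2 in Plcg2-/- libraries, and Abca1 and Pltp, and Pltp and Mylip in Plcg2+/+ libraries. Soat1 over Abcg1, a ratio chosen after the values were seen, was 0.999, 0.925 and 0.971 in Plcg2-/- 1 to 3, against 1.89, 1.73 and 1.27 in Plcg2+/+ 1 to 3.

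Within a genotype the order of libraries went with the replicate number for some of the 10 genes, without 1 pattern shared by all. The library numbered 1 was the lowest in both genotypes for Apoc2 and Nr1h3, and for 11.2% of all genes tested. It was the highest in both for Soat1, and for 12.9% of all genes. The library numbered 3 was the highest in both for Abcg1 and Nr1h3, and for 17.9% of all genes. The library numbered 2 was the highest in both genotypes for Apoe, Pltp and Abca1, as the map of deviations shows, and for 10.8% of all genes tested; the library numbered 3 was the lowest in both for Apoe and Pltp, and for 8.25% of all genes. As deviations from the genotype mean of log2(TPM + 1), Apoe stood at 0.81 in Plcg2-/- 2 and 0.83 in Plcg2+/+ 2, and Pltp at 0.68 in Plcg2-/- 2 and 0.42 in Plcg2+/+ 2. In a fit with terms for the number, a test chosen after the values were seen, 0 of the 10 genes passed the limma F-test (adjusted p = 0.269 for Apoe and 0.198 for Pltp), against 25 of all 12652 (0.198%). At an unadjusted p below 0.05 Apoe and Pltp did, against 12.6% of all genes.

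**Figure D3:**
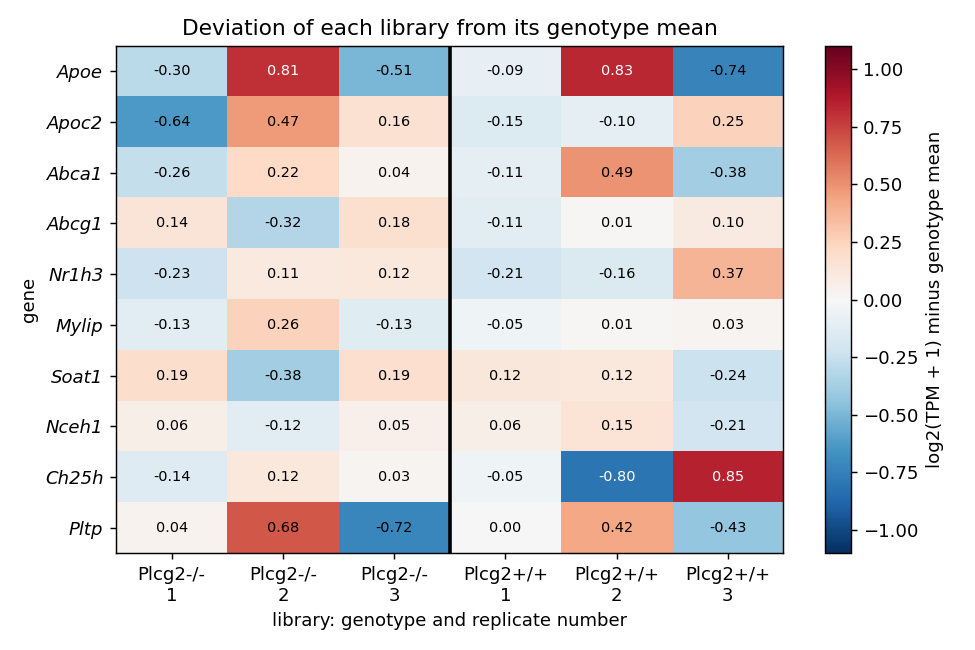
Log2(TPM + 1) of the 10 genes (rows) in each library (columns, Plcg2-/- left of Plcg2+/+) minus the mean of that genotype, as colour and number. Apoe and Pltp were above the mean in both libraries numbered 2 and below it in both numbered 3, and Ch25h spread from -0.80 to 0.85 in Plcg2+/+ libraries but from -0.14 to 0.12 in Plcg2-/- libraries.

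Sterol synthesis transcripts ran the other way across the same libraries. The 20 enzymes of the list summed to 1011, 436 and 1086 TPM in Plcg2-/- 1 to 3, against 800, 686 and 1140 TPM in Plcg2+/+ 1 to 3. The library numbered 2 was the lowest in both genotypes for 17 of the 20, all but Dhcr7, Ebp and Lss, and for 28.5% of all genes tested. Between genotypes 1 of the 20 fell and 0 rose by limma, with 1 and 0 at an unadjusted p below 0.05. The limma background was 5.31% lower and 15.6% higher. Dhcr7, the last reductase of the pathway, fell by 1.12 ± 0.26 (SE) on the log2 scale, with 49.3 ± 16.2 TPM in Plcg2-/- and 105 ± 13.2 TPM in Plcg2+/+ (SD, n = 3 each; limma adjusted p = 0.0257). Its limma adjusted p was 0.0632, 0.0593, 0.0778 and 0.0515 without Plcg2-/- 1, Plcg2+/+ 1, Plcg2+/+ 2 and Plcg2+/+ 3. The demethylase gene Cyp51 stood at -0.88, passing with the replicate block (limma adjusted p = 0.0391) but not without it (limma adjusted p = 0.188), and Mvk and Pmvk, kinases of the mevalonate pathway, at 0.61 and 0.60 without passing (limma adjusted p = 0.265 and 0.277).

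Over the 6 libraries, the transcripts most like Apoe among 8706 named genes with a mean of at least 5 TPM were Gpr65, a proton-sensing receptor, Lyz1, a lysozyme, Ccdc107 and Pla2g7, the plasma platelet-activating factor acetylhydrolase, with Pearson r of 0.990, 0.985, 0.984 and 0.977. Gpr65 had 13.2, 23.1 and 9.80 TPM in Plcg2-/- 1 to 3, against 12.4, 20.9 and 8.04 TPM in Plcg2+/+ 1 to 3, the order seen for Apoe within each genotype. Those most like Abca1 were Arhgap10, Neurl2, Cdkn1c and Slc48a1 (r = 0.990, 0.985, 0.980 and 0.978), and those most like Ch25h were Maskbp3, Filip1l and Ruvbl2 (r = 0.999, 0.998 and 0.997). The Maskbp3 correlation with Ch25h was -0.206 after median-of-ratios scaling. The libraries share genotype and replicate number, so these values describe 6 points and carry no p.

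The rest of the pathway was described from 7 lists of 124 genes, of which 104 were tested. These lists too were chosen with earlier results of these data known, so their counts are descriptions and not independent tests. In Plcg2-/- microglia 14 of the 104 genes rose and 9 fell, against a background of 15.6% higher and 5.31% lower. Their median log2 fold change was 0.03, against 0.19 for all genes. Without Plcg2-/- 1 the counts were 6 and 4, and 7, 8 and 9 rose without Plcg2-/- 3, Plcg2+/+ 1 and Plcg2+/+ 2. After median-of-ratios scaling 7 rose and 12 fell, against a background of 7.71% higher and 7.85% lower.

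Among lipoprotein uptake genes 5 of 12 tested fell and 1 rose, against a background of 5.31% lower and 15.6% higher. The median log2 fold change of the list was -0.52. Cd36, a scavenger receptor for oxidised lipoprotein, had 86.2, 103 and 133 TPM in Plcg2-/- 1 to 3, against 849.7, 850.5 and 465 TPM in Plcg2+/+ 1 to 3, and fell by 2.71 ± 0.28 (SE) in log2 units (limma adjusted p = 0.00166). Lrpap1, a chaperone of lipoprotein receptors, fell by 1.75, with 271 ± 54.6 TPM in Plcg2-/- and 906 ± 87.7 TPM in Plcg2+/+. Lrp1, an endocytic receptor for Apoe, fell by 1.03, with 506 ± 114 TPM in Plcg2-/- and 1023 ± 111 TPM in Plcg2+/+ (SD, n = 3 each; limma adjusted p = 0.00141 and 0.0135). Sorl1, a sorting receptor that binds Apoe, rose by 1.04, with 18.4 ± 4.50 TPM in Plcg2-/- and 8.30 ± 1.14 TPM in Plcg2+/+ microglia (limma adjusted p = 0.0131). Trem2, a lipid-sensing receptor, also fell, with 251 to 540 TPM in Plcg2-/- libraries, against 889 to 1538 TPM in Plcg2+/+ libraries (limma adjusted p = 0.0139). Without Plcg2-/- 1 or without Plcg2-/- 3, 3 of the uptake genes fell.

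Of 15 tested LXR target genes outside the 10, 1 rose and 1 fell, against a background of 15.6% higher and 5.31% lower. Lpl, lipoprotein lipase, whose cofactor Apoc2 is, had 298, 416 and 391 TPM in Plcg2-/- 1 to 3, against 3430, 4036 and 2563 TPM in Plcg2+/+ 1 to 3. No library of one genotype came near the other, and Lpl fell by 3.17 ± 0.21 (SE) in log2 units (limma adjusted p = 0.000717). Arl4c, a small GTPase known as an LXR target in macrophages, rose by 0.73 ± 0.11 (SE), with 101 ± 6.27 TPM in Plcg2-/- and 60.3 ± 5.33 TPM in Plcg2+/+ (SD, n = 3 each; limma adjusted p = 0.00696). Scd2, a desaturase, stood at -1.01 (limma adjusted p = 0.0733) and passed after median-of-ratios scaling and with the replicate block (limma adjusted p = 0.0389 and 0.0298). The engulfment receptor Mertk stood at 0.24 (limma adjusted p = 0.132), and Srebf1, the LXR target that drives fatty acid synthesis, at 90.5 to 114 TPM in Plcg2-/- and 105 to 146 TPM in Plcg2+/+ libraries (limma adjusted p = 0.325).

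Receptors and cofactors of LXR were called only upwards: 7 of 17 tested rose and 0 fell by limma, with 8 and 0 at an unadjusted p below 0.05, against a background of 15.6% higher and 5.31% lower; the median log2 fold change was 0.30, against 0.19 for all genes. Nr1h2, which encodes LXR beta, had 96.3, 96.3 and 97.4 TPM in Plcg2-/- 1 to 3, against 77.2, 78.3 and 76.2 TPM in Plcg2+/+ 1 to 3, and rose by 0.32 ± 0.09 (SE) in log2 units (limma adjusted p = 0.0458). That call was lost with the replicate block (limma adjusted p = 0.0594), after median-of-ratios scaling (limma adjusted p = 0.477) and without any single library (limma adjusted p from 0.0731 to 0.146). Rxra, a retinoid X receptor that pairs with LXR, rose by 0.50 ± 0.14 (SE), with 60.3 ± 5.85 TPM in Plcg2-/- and 42.5 ± 5.70 TPM in Plcg2+/+ (SD, n = 3 each; limma adjusted p = 0.0432). Rxra did not pass after median-of-ratios scaling (limma adjusted p = 0.116) or without Plcg2-/- 1, Plcg2-/- 3, Plcg2+/+ 1 or Plcg2+/+ 2 (limma adjusted p from 0.110 to 0.145). The coactivators Ncoa3, Ep300 and Ncoa1 rose by 0.79, 0.68 and 1.07, and the corepressor Ncor1 by 0.50, the highest limma adjusted p of the 4 being 0.0198; Ncoa2 also rose. Ncor1 did not pass after median-of-ratios scaling, at 0.29 (limma adjusted p = 0.0897), nor without Plcg2-/- 3 or Plcg2+/+ 1 (limma adjusted p = 0.0605 and 0.0523). Ep300 did not pass without Plcg2-/- 1 (limma adjusted p = 0.0582), nor Ncoa1 without Plcg2-/- 1, Plcg2-/- 3 or Plcg2+/+ 2 (limma adjusted p = 0.0709, 0.0679 and 0.0565). The count that rose was 3 of 17 after median-of-ratios scaling, against a background of 7.71%, 2 without Plcg2-/- 1 or Plcg2-/- 3, and 3 without Plcg2+/+ 1 or Plcg2+/+ 2.

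Around Ch25h, the oxysterol list held 8 tested genes, of which Cyp27a1 rose and Hsd3b7 fell, against a background of 15.6% higher and 5.31% lower. Cyp27a1, the mitochondrial sterol 27-hydroxylase that makes another LXR-activating oxysterol, had 125, 130.2 and 99.9 TPM in Plcg2-/- 1 to 3, against 42.3, 40.1 and 35.7 TPM in Plcg2+/+ 1 to 3. It rose by 1.56 ± 0.14 (SE) in log2 units (limma adjusted p = 0.00114), and every Plcg2-/- library was above every Plcg2+/+ library. Hsd3b7, which acts on 7-hydroxylated sterols, fell by 0.70 ± 0.13 (SE), with 45.1 ± 6.89 TPM in Plcg2-/- and 73.6 ± 1.77 TPM in Plcg2+/+ (SD, n = 3 each; limma adjusted p = 0.0130, and 0.0591 and 0.0523 without Plcg2-/- 1 and Plcg2+/+ 1). Insig2 and Scap, which hold and escort the sterol-regulated transcription factors, stood at -0.39 and -0.17 (limma adjusted p = 0.116 and 0.427). Cyp7b1, which converts 25-hydroxycholesterol further, was at 0.667 to 2.23 TPM in Plcg2-/- and 0.451 to 1.83 TPM in Plcg2+/+ libraries, and Gpr183, the receptor for its product, was below 1 TPM in all 6 libraries.

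Of 17 tested genes of lysosomal release and transfer 3 rose and 0 fell by limma, with 4 and 2 at an unadjusted p below 0.05. The limma background was 15.6% higher and 5.31% lower. Stard3, a late endosomal cholesterol carrier, rose by 0.79 ± 0.12 (SE), with 150.5 ± 10.0 TPM in Plcg2-/- and 86.9 ± 9.87 TPM in Plcg2+/+ (SD, n = 3 each; limma adjusted p = 0.00738). Gramd1b, which moves cholesterol from plasma membrane to endoplasmic reticulum, rose by 0.85 and the lysosomal membrane protein gene Lamp1 by 0.57 (limma adjusted p = 0.0194 and 0.0209, 0.0668 and 0.112 after median-of-ratios scaling). Gramd1b did not pass without Plcg2-/- 1 or Plcg2+/+ 2 (limma adjusted p = 0.0653 and 0.0607), nor Lamp1 without Plcg2-/- 1, Plcg2-/- 3 or Plcg2+/+ 1 (limma adjusted p = 0.0882, 0.0743 and 0.0867). Without Plcg2-/- 1, 1 of the 17 rose, and after median-of-ratios scaling 1 rose and 1 fell. Lipa, the acid lipase that frees cholesterol in lysosomes, had 551 to 706 TPM in Plcg2-/- and 781 to 1306 TPM in Plcg2+/+ libraries without passing (limma adjusted p = 0.0653, 0.0221 without Plcg2+/+ 3).

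Among 15 tested apolipoproteins, lipoprotein enzymes and A-class transporters 1 rose and 1 fell, against a background of 15.6% higher and 5.31% lower. Abca9 rose by 0.85, with 17.1 ± 3.75 TPM in Plcg2-/- and 8.99 ± 1.11 TPM in Plcg2+/+, and Abca2, a transporter of endolysosomes, fell by 0.62, with 11.2 ± 0.809 TPM in Plcg2-/- and 17.9 ± 3.04 TPM in Plcg2+/+ (SD, n = 3 each; limma adjusted p = 0.0199 and 0.0274). Abca9 did not pass without Plcg2-/- 1, Plcg2-/- 3 or Plcg2+/+ 1, nor after median-of-ratios scaling (limma adjusted p = 0.0737, 0.0577, 0.0657 and 0.0532). Abca2 did not pass without Plcg2-/- 1, Plcg2-/- 3 or Plcg2+/+ 2 (limma adjusted p = 0.0884, 0.0920 and 0.0627). Apool and Apod stood at 0.67 and 0.59 (limma adjusted p = 0.0608 and 0.270), Apool passing with the replicate block (limma adjusted p = 0.0328). Apoa2, an apolipoprotein of liver, had 23.8, 188.3 and 188.0 TPM in Plcg2-/- 1 to 3, against 19.7, 65.6 and 170.4 TPM in Plcg2+/+ 1 to 3, and Apoa1, its partner in such particles, had 11.5, 81.7 and 81.0 TPM in Plcg2-/- 1 to 3, against 16.5, 72.6 and 119.8 TPM in Plcg2+/+ 1 to 3. Both follow the hepatocyte marker sum, of which they are part, in being lowest in the libraries numbered 1.

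**Figure D4:**
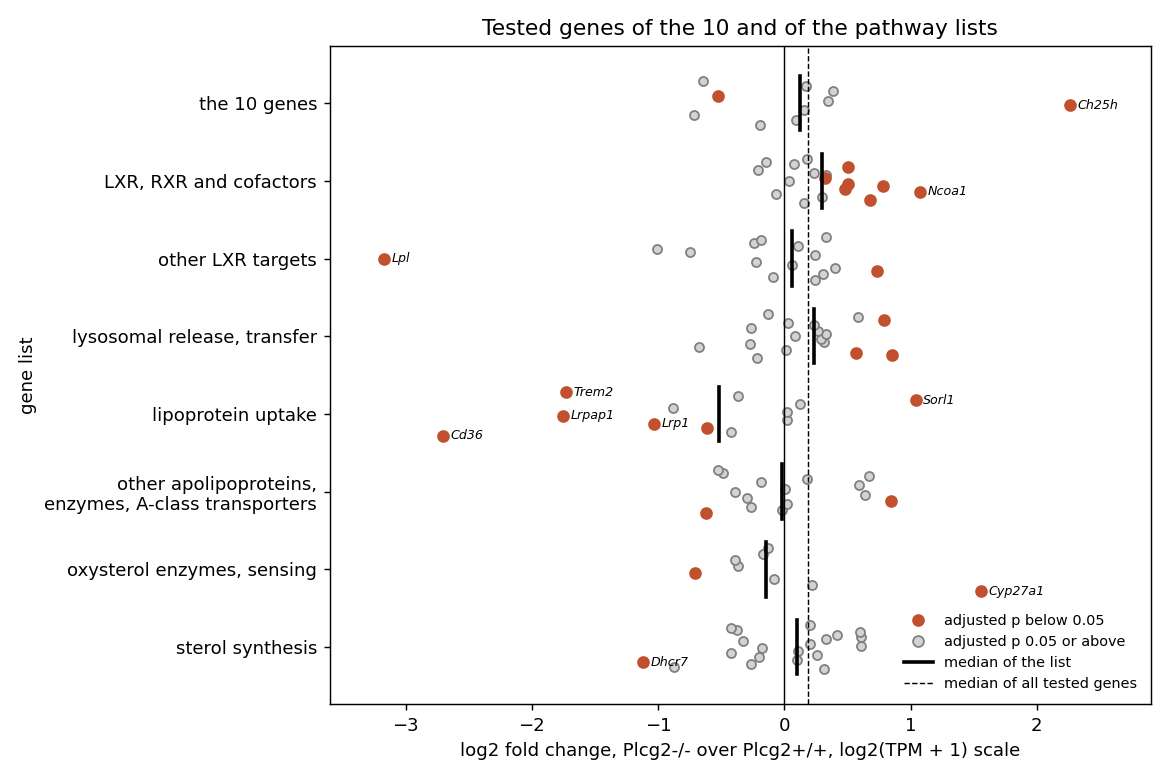
Log2 fold change (Plcg2-/- over Plcg2+/+), from log2(TPM + 1), of each tested gene of the 10 and of the 7 pathway lists; red marks an adjusted p below 0.05, black bars the median of a list and the dashed line the median of all tested genes (0.19). Called genes beyond 1 in either direction are named, with Lpl at -3.17 and Cd36 at -2.71 farthest out on the lower side and Ch25h at 2.26 and Cyp27a1 at 1.56 on the higher side.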

How the data were processed

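Polyadenylated RNA of 6 microglial libraries was read as 150-bp paired ends, per the labels' protocols. The authors deposited 1 table of TPM (transcripts per 1000000) per gene, each column summing to 1000000; Salmon 1.3.0, DESeq2 1.30.1, R 4.0.4 and GRCm38.p6 are named in the submitters' processing notes. No source used here names the annotation release or the strand setting. TPM keeps no depth, so no count model was fitted.

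Genes averaging 1 TPM or more were tested on log2(TPM + 1); the test was limma 3.58.1 (R 4.3.3), two-sided, with a prior variance that follows the mean and no block, with Benjamini-Hochberg adjustment over 12652 genes and a threshold of 0.05. The test was checked on simulated data. Among changed genes averaging at least 5 TPM it called 3 of 41 (7.3%) at a log2 size of 0.5. It called 24 of 35 (68.6%) at a size of 1 and 42 of 43 (97.7%) at 2. Changes near 0.5 were thus mostly missed in the simulation. It changed 200 of the 12652 genes and averaged each gene's variance with the median variance. In the data 20.9% of genes were called, so the adjustment was less strict there. The simulated shares therefore do not carry over to the genes that did not pass. Tables were read with Python 3.11.15 and pandas 2.3.3. Positions come from GENCODE (GRCm38). The 10 genes and all lists were chosen with earlier results of these data known. Named genes were the 10, Plcg2, Nr1h2, Rxra, up to 4 genes per pathway list and 3 interferon genes with the smallest p, and the 4 genes most correlated with Apoe, Abca1 and Ch25h; Trem2, Ncoa2, Srebf1, Cyp7b1, Gpr183, Apoc1, Apoc4, Apoa1, Apoa2 and the cell type markers were added after their values were seen. Some genes that this rule names are not reported here.

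Replicate numbers 1 to 3, from the titles, pair the libraries across genotypes by the rule used, a correlation above 0.1. Deviations from genotype means correlated at 0.295, 0.193 and 0.147 between libraries of the same number. Between different numbers the correlations ran from -0.195 to 0.004. The reported test has no block and so leaves this pairing out. Within numbers 1, 2 and 3 the Y-linked sum was 58.6, 0.783 and 0.994 TPM in Plcg2-/-, against 0.371, 107 and 112 TPM in Plcg2+/+. The alternatives tried were a pseudocount of 0.1 or 0.5, no filter on low genes, a filter at 5 TPM, scaling by median of ratios, rescaling without mitochondrially encoded genes, constant prior variance, the replicate block with and without scaling, a Y-linked covariate, each library left out and, added after seeing the data, a hepatocyte covariate. Both covariates entered as log2(summed TPM + 1).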

Additional observations from a re-analysis of the deposited data

How the results depend on the processing

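Over 17 settings beside the one reported, the call of Ch25h held in every one, at log2 fold changes of 1.86 to 2.69. The number of the 10 genes called lower, 1 as reported, was 0 with no filter and with either the summed Y-linked or the summed hepatocyte level as covariate, 2 with a filter at 5 TPM, after median-of-ratios scaling and after rescaling without mitochondrially encoded genes, and 3 with the replicate block and median-of-ratios scaling. Leaving out single libraries gave 0 to 2 lower and 1 to 2 higher. With the replicate block alone 1 was higher and 1 lower, and among all genes 3298 were called, against 2643 without it; Nceh1 had a limma adjusted p of 0.0433. The pairing changed the call of none of the 10 genes unless scaling was changed too. Of the pathway genes, 7 were higher after median-of-ratios scaling, 7 with the block and that scaling, and 6 with the Y-linked covariate; 12 were lower after median-of-ratios scaling, 12 with the block and 17 with the block and that scaling. Single libraries left out gave 6 to 15 higher and 4 to 9 lower. The cause of these differences was not tested.

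Signs turned for genes that did not pass. Apoe stood at -0.0631 after median-of-ratios scaling with or without the block, -0.25 without Plcg2-/- 2 and -0.22 without Plcg2+/+ 3, over a range of -0.25 to 0.57 with single libraries left out. Pltp stood at -0.0410, -0.17 and -0.0408 under the same settings, over -0.17 to 0.53. Abcg1 stood at -0.12 after that scaling with or without the block and -0.0385 without mitochondrially encoded genes. Abca1 stood at 0.0563 without Plcg2+/+ 2, over -0.38 to 0.0563. The Maskbp3 correlation with Ch25h was -0.206 after median-of-ratios scaling. TPM carries no depth, so the precision of low genes such as Ch25h in Plcg2+/+ cannot be judged beyond the spread of 3 libraries.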
